A study of Mus musculus with 2 samples.

Results

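The genes of the beaded filament and of the spectrin-ankyrin membrane skeleton were examined on both arrays of the mouse lens at stage E12.5. The members were 9 genes chosen by name, and every probe whose platform gene symbol equalled one of them was taken. Of the 9 genes, 7 had a named probe, out of 19057 genes in all, and they carried 40 probes: 12 for Dst, 7 each for Ank2, Ank3 and Sptbn1, 5 for Sptb, and 1 each for Bfsp2 and Tmod1. No probe carried the symbol or gene ID of Bfsp1 or Sptan1, and these 2 genes are not analysed here.

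The samples were 1 array of lens epithelium and 1 array of lens fibers, both wild type. Total RNA carried a biotin label and was hybridised to Illumina expression arrays. The sources used here do not give the dissection, the strain or the number of embryos behind each RNA. With 1 array per tissue there was no replicate, so no test, SD or p-value was possible and each difference describes these 2 arrays.

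Lens fibers elongate from the epithelium and build a specialised cytoskeleton under the plasma membrane. The beaded filament is an intermediate filament found in lens fibers, assembled from filensin (Bfsp1) and phakinin (Bfsp2, also called CP49). The membrane skeleton is a meshwork in which spectrin tetramers of alpha chains (Sptan1) and beta chains (Sptb, Sptbn1) cross-link short actin filaments. Tropomodulin (Tmod1) caps the pointed ends of those filaments, and ankyrins (Ank2, Ank3) tie the spectrin to membrane proteins. Dystonin (Dst) is a plakin, a large linker between intermediate filaments, actin and microtubules.

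Probes of these genes were mostly brighter on the fibers array. In the deposited intensities, 37 of the 40 probes had a higher value in fibers and 3 a higher value in epithelium. Of all 34885 named probes, 49.8% were higher in fibers. Among the 37 were 15 probes that read as background by the floors defined below, and probes of 1 gene are not independent. Probes of a list of housekeeping genes also leaned to fibers, with 32 of 40 higher there. By the brightest probe of each gene, Ank2, Sptb, Sptbn1, Bfsp2 and Dst were 2-fold or more above epithelium. Among all genes above a background floor, defined below, 15.6% were. The largest differences were at least 18.6-fold for Dst and at least 13.4-fold for Sptb. Sptb and Ank3 each also had 1 probe that was 2-fold or more higher in epithelium. Ank3 gave little signal, and Tmod1 was higher in fibers by a bound of at least 1.94-fold.

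Intensities below are quantile normalized, and ratios are fibers over epithelium. A probe was read as signal when it exceeded the floor of its array, the 95th percentile over 1575 probes of 1303 genes assumed silent there (keratin-associated proteins and olfactory-type receptors), which was 44.5 in epithelium and 32 in fibers. Where a probe passed only 1 floor, the fold was a bound against the floor of the other array, written as at least N-fold. By that measure 24 of the 40 member probes were above a floor: 4 passed both floors, 18 passed that of fibers alone and 2 that of epithelium alone. The remaining 16 were below both floors.

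Of the 24 probes, 14 reached a 2-fold excess in fibers and 2 reached it in epithelium, where 14.9% and 18.1% of all 8586 named probes above a floor did. Of the 14, 3 were above both floors and 11 were bounds. Among the 4 member probes above both floors, 3 were called in fibers and 0 in epithelium, beside 14.3% and 17.2% of all 3597 such named probes. A probe above only the fibers floor can be called in fibers alone, so the count of bounds carries no direction of its own. The same rule called 0.381% of the silent probes in fibers and 2.03% in epithelium. The median log2 ratio of the 22 member probes with a ratio was 1.30, and that of all named probes with a ratio was 0.03. Only 4 of the 22 were above both floors, and a bound takes the sign of the array whose floor was passed. The median of 1.30 therefore partly restates which floor was passed. Taking the brightest probe of each gene, 5 of 7 members had a 2-fold excess in fibers and 0 had it in epithelium, beside 15.6% and 19.0% of all 6451 genes above a floor. Of those 7 brightest probes, 1 was above both floors and 6 were above the fibers floor alone. Those 6 could not be called in epithelium, so the 0 carries no direction for them.

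Values below both floors, which the rule reads as background, also leaned to fibers. Of the 16 dim member probes, 15 had a higher deposited value in fibers, against 47.9% of the 26299 named probes below both floors and 46.7% of the silent probes. These dim values have no ratio, and some pairs differ by a few units only. Of the 16 probes, 8 belong to Dst and 5 to Ank3, and probes of 1 gene are not independent. With arrays scaled to the median housekeeping intensity, Dst probes ILMN_1251692 and ILMN_2750431 and Ank3 probes ILMN_1223963 and ILMN_2622306 turned to read higher in epithelium. The lean is therefore not counted as support for the calls. Fewer cells of a type and less RNA per cell cannot be told apart in such bulk samples.

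The split of calls depended on how the arrays were scaled. Housekeeping genes were also brighter in fibers: of the 15 above a floor, 12 had positive log2 ratios and 8 reached 2-fold, and the median was 1.03. That median includes bounds. Over the 11 housekeeping genes above both floors alone, the median fold was 1.79. With the fibers array divided by this housekeeping fold of 1.79, 9 member probes were called in fibers and 2 in epithelium. The median of all named probes above both floors moved from -0.18 to -1.02. Under that scaling 4.36% of named probes above a floor were called in fibers and 39.6% in epithelium, and 35 of the 40 member probes still had a higher value in fibers, against 47.2% of all named probes. With each array scaled to the median housekeeping intensity, a median of 143 in epithelium and 433 in fibers over 11 genes, 5 member probes were called in fibers and 3 in epithelium. The same scaling called 1.29% of named probes in fibers and 50.7% in epithelium, moved the median of all named probes above both floors to -1.78, and left 30 of the 40 member probes higher in fibers, against 41.9% of all named probes. The part of this shift in the results was not tested.

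**Figure D1:**
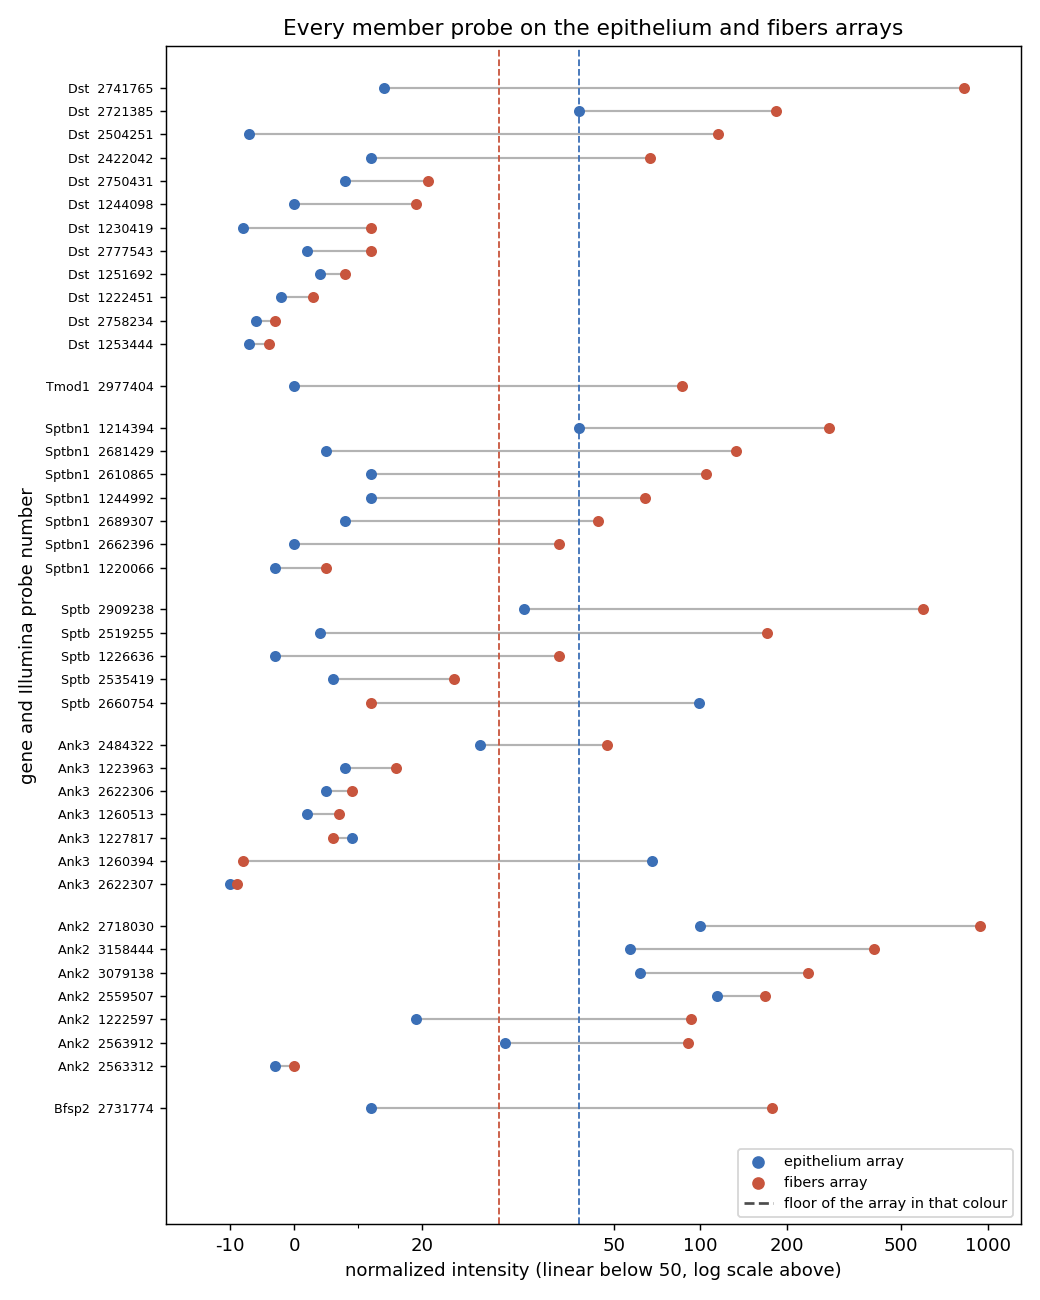
Normalized intensity of each of the 40 member probes on the epithelium array (blue) and the fibers array (red), joined by a grey line, grouped by gene; the axis is linear below 50 and logarithmic above, and dashed lines mark the floors of 44.5 (epithelium) and 32 (fibers). In 37 rows the fibers point lies to the right of the epithelium point, and the exceptions are 1 Sptb probe and 2 Ank3 probes.

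Upstream sequence is shown for Dst and Sptb, the members with the largest differences, and for Bfsp2, the filament protein particular to the lens by its known role. Each line holds the 250 bases before a RefSeq transcription start, from RefSeq on build GRCm38.p6, read 5′ to 3′ on the strand of the gene. Capitals mark matches to TGCTGA, one arm of the palindromic Maf recognition element, on either strand, where TCAGCA is its reverse complement.
Dst, the downstream of 2 starts (chr1:34160010-34160259, plus strand): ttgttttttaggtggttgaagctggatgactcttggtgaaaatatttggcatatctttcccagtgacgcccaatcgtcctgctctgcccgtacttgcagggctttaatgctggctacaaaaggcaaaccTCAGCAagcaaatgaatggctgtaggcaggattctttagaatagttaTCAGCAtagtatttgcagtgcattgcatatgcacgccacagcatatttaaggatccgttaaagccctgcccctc
Sptb (chr12:76710548-76710797, minus strand): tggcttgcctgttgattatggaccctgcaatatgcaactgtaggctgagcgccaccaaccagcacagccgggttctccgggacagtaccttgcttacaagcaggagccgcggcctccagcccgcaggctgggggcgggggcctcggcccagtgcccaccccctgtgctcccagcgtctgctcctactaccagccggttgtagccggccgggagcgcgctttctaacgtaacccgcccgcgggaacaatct
Bfsp2 (chr9:103449177-103449426, minus strand): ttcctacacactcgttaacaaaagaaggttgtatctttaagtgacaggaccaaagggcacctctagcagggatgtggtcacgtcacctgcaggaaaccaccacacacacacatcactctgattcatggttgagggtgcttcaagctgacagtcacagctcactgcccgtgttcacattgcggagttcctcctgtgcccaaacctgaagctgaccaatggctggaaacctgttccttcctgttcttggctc
The Dst window printed was chosen because it held matches, 2 in number, the first bases of which lie 121 and 74 bases before the start. The window of the upstream Dst start (chr1:34011345-34011594) held none of the motifs searched. The Sptb and Bfsp2 windows held none of the 3 motifs searched, namely the Maf motif TGCTGA, the GATA factor motif AGATAA and the heat shock element core GAANNTTC, each on both strands.

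Over the 13 windows of the 8 members with a promoter entry, 3 windows held TGCTGA, 1 held AGATAA and 1 held GAANNTTC, while 16.1%, 9.99% and 6.69% of all 32851 promoter windows of the same length did. The TGCTGA matches were in the windows of Bfsp1, 1 of 2 Dst starts and 1 of 4 Ank2 starts, the AGATAA match in that of Bfsp1 and the GAANNTTC match in the same Ank2 window. No matches overlapped. These matches are letters in a window and not measured sites. The other members with an entry were Sptan1, Sptbn1 and Tmod1, and Ank3 had none.

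The beaded filament was represented by Bfsp2 alone. Its single probe (ILMN_2731774) read 12 in epithelium, below the floor, and 178 in fibers, at least 4-fold higher. Of all named probes with a ratio, 3.90% had a higher log2 ratio, with bounds entered at their value. As deposited the values were also 12 and 178, a quotient of 14.8 whose lower value is indistinguishable from background. The bound fell to a log2 ratio of 0.69 with the floor at the 99th percentile of the silent probes, 110.5 in epithelium and 80.8 in fibers, to 1.16 with the housekeeping fold divided out, and to 0.39 with arrays scaled to the median housekeeping intensity.

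Ank2, ankyrin-B, which anchors ion transporters and adhesion molecules to spectrin, was the member with the most probes above both floors. The brightest probe (ILMN_2718030) read 100 in epithelium and 941 in fibers, a 9.41-fold difference, and 0.514% of all named probes with a ratio had a higher log2 ratio. A second probe (ILMN_3158444) read 57 and 401 (7.04-fold) and another (ILMN_3079138) read 61.5 and 238 (3.87-fold). These last 2 were designed on the same RefSeq record, NM_178655.

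The other 4 Ank2 probes were designed on cDNA clones. Probe ILMN_2559507 read 114 and 168.5, a log2 ratio of 0.56, and it turned to -0.28 and -1.03 under the housekeeping scalings. Probes ILMN_1222597 (19 and 93) and ILMN_2563912 (33 and 91) were above the fibers floor only, where their excess was at least 2.09-fold and 2.04-fold. Probe ILMN_2563312 read -3 and 0 and was below both floors. All 7 probes had a higher value in fibers, and 5 were called in fibers. Both bounds lost their call with the housekeeping fold divided out (0.22 and 0.19 on the log2 scale), and they had no ratio with arrays scaled to the median housekeeping intensity or with the 99th percentile floor.

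The range of Ank2 ratios can be set beside the disagreement between probes elsewhere. Its probes above both floors had log2 ratios from 0.56 to 3.23. Across 690 pairs of probes from 472 genes with at least 2 probes above both floors, the log2 ratios of a pair differed by a median of 0.50, and by 1.84 at the 90th percentile. This between-probe difference and the SD of 0.84 among 32 silent probes above both floors are the spreads these data give, and neither is a replicate error.

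Ank3, ankyrin-G, the ankyrin of the lateral membrane of epithelial cells and of axon initial segments, was at or near background. Of 7 probes, 5 were below both floors, with values up to 9 in epithelium and 16 in fibers. Probe ILMN_2484322 read 29 and 49, above the fibers floor only and at least 1.10-fold higher there. Probe ILMN_1260394, designed on a cDNA clone, went the other way, with 68 in epithelium and -8 in fibers (at least 2.12-fold higher in epithelium). It lost that call with a common floor of 44.5 on both arrays, with a log2 ratio of -0.61. With the 99th percentile floor, 110.5 in epithelium, it had no ratio. No Ank3 probe was 2-fold higher in fibers.

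**Figure D2:**
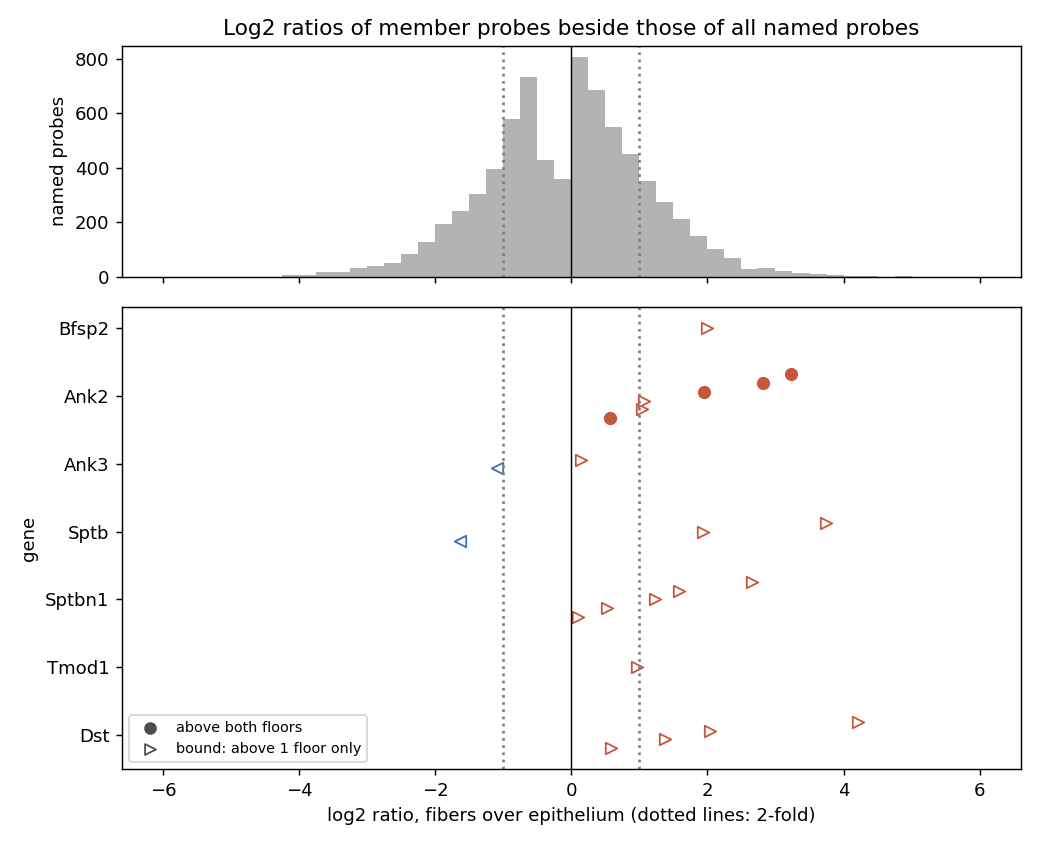
Top, the number of named probes by log2 ratio of fibers over epithelium, bounds included; bottom, the log2 ratio of each of the 22 member probes with a ratio, with filled circles above both floors and open triangles for bounds, which point away from 0. Of the 22 ratios, 20 are positive, and the 2 negative ones belong to Ank3 and Sptb. The sign of a bound is set by the floor that was passed.

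Among the spectrins, Sptb, the beta chain first known from red blood cells, had probes that disagreed. Probe ILMN_2909238 read 36 in epithelium and 596 in fibers, at least 13.4-fold higher in fibers, and ILMN_2519255 read 4 and 170.5 (at least 3.83-fold). Probe ILMN_1226636 read -3 and 41.5, above the fibers floor but under that of epithelium, so that it had no ratio, and ILMN_2535419 read 6 and 25, below both. Probe ILMN_2660754 was reversed, with 99 in epithelium and 12 in fibers (at least 3.09-fold higher in epithelium). All but ILMN_1226636 were designed on 1 RefSeq record, NM_013675.

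Such disagreement was found in other genes too. Of 330 genes with 2 or more called probes, 49 (14.8%) had calls in both directions, Sptb among them. The reversed Sptb probe was not above the 99th percentile floor of epithelium (110.5) and kept its call in epithelium under every other alternative for scaling and floor, with log2 ratios from -3.23 to -1.15. Over all alternatives for scaling and floor the brightest Sptb probe ranged from 2.14 to 3.74.

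Sptbn1, the beta-II spectrin of most non-erythroid cells, was higher in fibers at all 7 of its probes. The brightest (ILMN_1214394) read 44.5, exactly at the epithelium floor, and 281, at least 6.31-fold higher in fibers. Probes ILMN_2681429 (5 and 133.5) and ILMN_2610865 (12 and 104.5) were higher in fibers by at least 3-fold and 2.35-fold. Probe ILMN_1244992 read 12 and 64 (at least 1.44-fold).

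The probes of Sptbn1 fell into 2 transcript records. All 4 probes on NM_175836 were above the fibers floor and 3 were called in fibers. Of the 3 on NM_009260, 2 were above that floor, ILMN_2689307 (8 and 47.5) and ILMN_2662396 (0 and 41.5), and ILMN_1220066 (-3 and 5) was below both; none of the 3 was called. The difference between the records was not tested, since probe levels are not comparable with one another.

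Tmod1, the pointed-end capping protein, had 1 probe (ILMN_2977404), at 0 in epithelium and 86.5 in fibers. Its bound was 1.94-fold, just outside the 2-fold threshold, while the nearest member probes inside it were those of Ank2 at 2.04-fold and 2.09-fold. With 50 added to both values and no floor, its log2 ratio was 1.45 and it was called. With the housekeeping fold divided out the log2 ratio was 0.12. The probe had no ratio with arrays scaled to the median housekeeping intensity or with the 99th percentile floor.

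Dst had the largest single difference of the members. Probe ILMN_2741765 read 14 in epithelium and 828 in fibers, at least 18.6-fold higher in fibers, and 0.0677% of named probes with a ratio had a higher log2 ratio. Probe ILMN_2721385 read 44.5, exactly at the epithelium floor, and 183.5 (at least 4.12-fold), and ILMN_2504251 read -7 and 115 (at least 2.58-fold). Probe ILMN_2422042, designed on a cDNA clone, read 12 and 67 (at least 1.51-fold).

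The other 8 Dst probes were below both floors, with values up to 8 in epithelium and 21 in fibers. All 12 Dst probes nevertheless had a higher deposited value in fibers. Of 8 probes on 1 record, NM_134448, 3 were called in fibers and 5 were below both floors, and both probes on NM_010081 were below both floors. The gene makes several isoforms, and the position of each probe in them was not used here.

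Over all alternatives for scaling and floor, of which 6 gave distinct values, 5 of the 14 probe calls in fibers were kept, in 4 genes. They were ILMN_2741765 of Dst (log2 ratio from 2.59 to 4.22), ILMN_2909238 of Sptb, given above, ILMN_2718030 of Ank2 (1.66 to 3.26), ILMN_3158444 of Ank2 (1.23 to 2.83) and ILMN_1214394 of Sptbn1 (1.05 to 2.66).

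**Figure D3:**
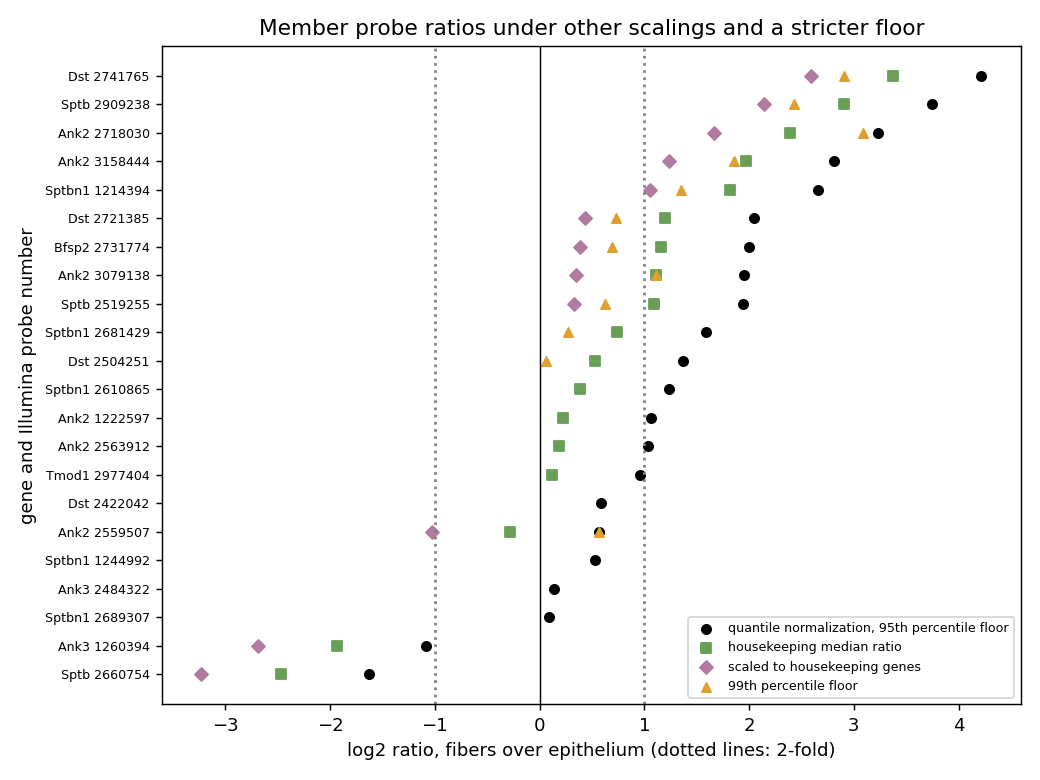
Log2 ratio of each member probe with the values used in the text (black circles), with the housekeeping fold divided out (green squares), with arrays scaled to the median housekeeping intensity (purple diamonds) and with the 99th percentile floor (orange triangles); a missing symbol means that the setting gave no ratio. The top 5 probes stay right of the 2-fold line under each setting drawn, and the second-lowest and lowest, of Ank3 and Sptb, stay left of 0.

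Other genes of the membrane skeleton went both ways. Of 25 listed partners, 20 had a probe and 13 were above a floor. Of these 13, 4 were called in fibers and 2 in epithelium, beside 15.6% and 19.0% of all genes above a floor. The median log2 ratio was 0.34, beside -0.03 over all genes. The adducins Add1 (69 and 182.5, 2.64-fold) and Add2 (61.5 and 151, 2.46-fold), which cap actin and recruit spectrin to it, were higher in fibers, while Add3 had a log2 ratio of -0.50. In the protein 4.1 family, some members link spectrin and actin to membrane proteins. Of this family, Epb41l3 (411 and 1027.5, 2.50-fold) and Epb41l4a (46.5 and 146.5, 3.15-fold) were higher in fibers, though a second Epb41l4a probe had -0.32. Epb41l2 had a log2 ratio of 0.44 at its brightest probe (220 and 297.5), and 2 dimmer probes of it were called in fibers (4 and 131, at least 2.94-fold, and 23 and 132, at least 2.97-fold).

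A pair of genes in that family were higher in epithelium. Epb41l1 read 110.5 and 25 (at least 3.45-fold higher in epithelium) and Epb41l5 read 111.5 and 36 (3.10-fold). Tmod2, a second tropomodulin, read 58.5 and 69. With the housekeeping fold divided out, 0 partners were called in fibers and 4 in epithelium, where 4.36% and 39.6% of all named probes above a floor were. With arrays scaled to the median housekeeping intensity the counts were 0 and 7, where 1.29% and 50.7% of named probes were called. These counts are therefore not read as a turn of the partners to epithelium. Of the list's 66 probes, 41 (62.1%) had a higher normalized value in fibers.

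Among membrane proteins that bind ankyrin and the ezrin, radixin and moesin group, 10 of 13 genes with a probe were above a floor. Of the 10, 2 were called in fibers and 1 in epithelium, near the 15.6% and 19.0% of all genes above a floor. The median log2 ratio was 0.14. Nrcam, an adhesion molecule that binds ankyrin, read 15 and 346, an excess of at least 7.78-fold in fibers, and Atp1b1, a sodium pump subunit, read 28 and 168.5 (at least 3.79-fold). Msn, moesin, read 131 and -3, at least 4.09-fold higher in epithelium. Both calls in fibers remained with the housekeeping fold divided out, when 3 genes were called in epithelium. With arrays scaled to the median housekeeping intensity 1 gene was called in fibers and 6 in epithelium. Of all named probes above a floor, 39.6% were called in epithelium under the first scaling and 50.7% under the second. In fibers the shares were 4.36% and 1.29%.

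Other intermediate filament genes were mostly below both floors, 11 of 15 with a probe. Synm, synemin, read 86.5 and 289.5 (3.35-fold higher in fibers), and a second of its probes was at least 3.61-fold higher. The nuclear lamins Lmnb1 (323 and 19, at least 10.1-fold) and Lmnb2 (434 and 160.5, 2.70-fold) were higher in epithelium. Vim, vimentin, the other main filament protein of the lens, read 73 and 89, a log2 ratio of 0.29. With arrays scaled to housekeeping genes by either rule, 0 of these genes was called in fibers. In epithelium 2 were called with the housekeeping fold divided out and 3 with arrays scaled to the median housekeeping intensity. Those rules called only 4.36% and 1.29% of named probes above a floor in fibers, and 39.6% and 50.7% in epithelium. These shares are of probes, while the counts are of genes.

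Of the other plakins, only Plec, plectin, was above a floor among 4 genes with a probe. Its brightest probe read 190.5 and 413.5 (2.17-fold higher in fibers), a second read 77.5 and 23 (at least 2.42-fold higher in epithelium) and a further one 53.5 and 54.5, so its probes did not share a direction. With arrays scaled to housekeeping genes by either rule, no plakin of the list was called in fibers, where 4.36% and 1.29% of named probes were.

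**Figure D4:**
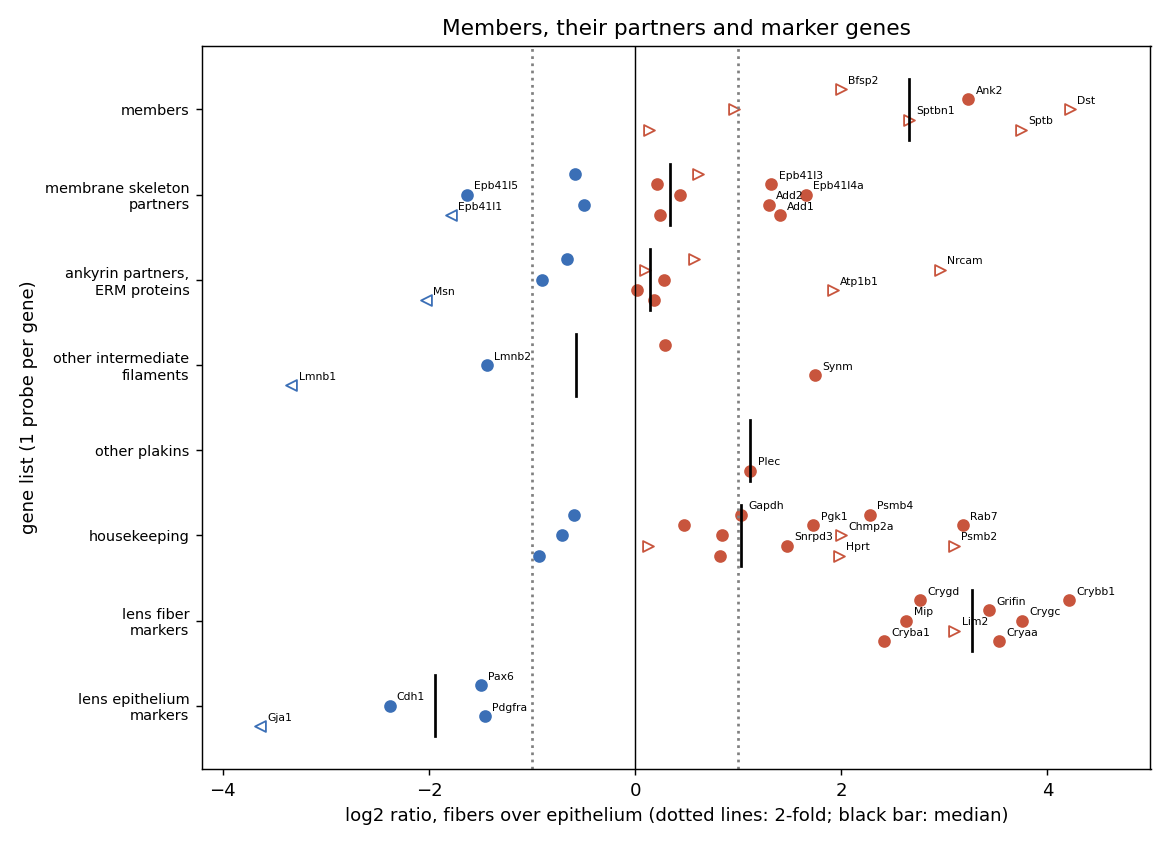
Log2 ratio of fibers over epithelium for 1 probe per gene in the members, their partner lists, housekeeping genes and lens markers, with filled circles above both floors, open triangles for bounds and a black bar at each median. The members' bar stands at 2.66, that of the membrane skeleton partners at 0.34 and that of the lens fiber markers at 3.27. These medians are not like measures. Of the 7 member genes 6 are bounds, positive by rule, while 10 of 12 partner ratios and 7 of 8 fiber marker ratios are above both floors.

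The labels were checked with marker genes. Of 9 lens fiber markers 8 were above a floor, and all 8 were called in fibers (median log2 ratio 3.27). Of 6 lens epithelium markers 4 were above a floor, and all 4 were called in epithelium (median -1.94), but Foxe3 and Npnt were below both floors. Mip, a fiber marker, read 3206.5 in epithelium and 19878 in fibers, so fiber transcripts also gave signal on the epithelium array. Most listed markers of retina, periocular mesenchyme, surface ectoderm, endothelium and pigment cells were below both floors. Sfrp2 of the retina list (1256 and 139.5) and Tfap2b of the periocular list (208.5 and 36) were called in epithelium, and no other gene of these lists was called. The part of other tissues in the epithelium array was not tested.

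Some members are also known from red blood cells and neurons. Erythroid markers summed to 3764 in epithelium and 2699 in fibers, and 5 of 9 with a probe were below both floors, Alas2, Klf1 and Rhag among them, while the globin Hbb-bs read 3458 and 2458.5. The red cell membrane genes Ank1 (6 and 9), Epb42 (1 and 4) and Slc4a1 (4 and 2) were below both floors. The partner list also held Dmtn, whose brightest probe read 2 and 40.5, above the fibers floor only and without a ratio. Add2 of that list, given above, was called in fibers. Neuron markers summed to 329.5 and 128.5, with 5 of 7 below both floors and Elavl3 at 213 and 78. The globins Hba-a1 (15 and 76.5) and Hbb-y (121.5 and 124) read higher in fibers, while Hbb-bt (141.5 and 7) read higher in epithelium. The part of these cells in the members' values was not tested.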

How the data were processed

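RNA from 1 epithelium and 1 fibers sample was hybridised to Illumina arrays, per the labels. The deposited table held 1 intensity for each of 45281 probes and both samples, as whole numbers from -16 to 36428 on a linear scale; 38.0% and 38.7% of the values were 0 or less, which shows background subtraction by the authors; no source used here names the method. Values were quantile normalized and compared as log2 ratios (Python 3.11.15, numpy 2.4.6, pandas 2.3.3), called at 2-fold, with floors as given above; the functions were tested on simulated data. The brightest probe stood for a gene. Of the probes, 34885 had 1 symbol in the platform annotation, 18 several and 10378 none. Promoters came from RefSeq (GRCm38.p6). With 1 array per group nothing was tested, and precision is limited by the number of arrays. Named genes are all members, and from each partner list those called at 2-fold or against the list's median. Other genes named, such as Add3, Tmod2, Vim and red cell genes, were chosen after their values were seen. Members and lists were chosen with earlier results of these data known. Scaling, floor, probe choice and symbols were varied. One housekeeping scaling, by the median ratio, and the count of probes higher in fibers were added after seeing the data.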

Additional observations from a re-analysis of the deposited data

How the results depend on the processing

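Values as deposited and updated symbols left every count of calls within 1.5 times its value. Scaling to the 75th percentile gave the same values as those deposited and is no separate alternative. Counts of member probes called in fibers moved from 14 to 9 with the housekeeping ratio divided out, 5 with arrays scaled to the median housekeeping intensity and 6 with the 99th percentile floor. Member probes called in epithelium moved from 2 to 1 with the common floor and 0 with the 99th percentile floor. Members called in fibers as genes ranged from 4 to 6 over all alternatives, and members called in epithelium moved from 0 to 1 under both housekeeping scalings and with the second brightest probe. For the membrane skeleton partners, calls in fibers moved from 4 to 0 under both housekeeping scalings, 1 with the 99th percentile floor, 2 with 50 added and 2 with the mean of all probes; calls in epithelium moved from 2 to 4 (housekeeping ratio), 7 (median housekeeping intensity), 0 (99th percentile floor and second brightest probe), 1 (50 added) and 1 (mean of all probes). The housekeeping ratio and the median housekeeping intensity called 39.6% and 50.7% of all named probes above a floor in epithelium, and 4.36% and 1.29% in fibers. Fewer probes pass the 99th percentile floor by its construction. Elsewhere the cause was not tested. The Ank2 probe ILMN_2559507 reversed, to -0.28 and -1.03, under the housekeeping scalings, and no other member probe with a ratio did. ILMN_2563912 of Ank2 (66.5 and 60.5) and ILMN_2484322 of Ank3 (58.4 and 32.6) read higher in epithelium with arrays scaled to the median housekeeping intensity, where neither had a ratio. No paired analysis was possible because each group has 1 array and nothing was tested. Signal over background limits 16 of 40 member probes, which were below both floors, and 18 more above the fibers floor only.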
